A study of Mus musculus with 4 samples.

Results

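*Vegfa*, *Angpt1*, *Flt1*, *Kdr*, *Tek*, *Tie1*, *Cldn5*, *Ocln*, *Cdh5* and *Pecam1* encode 2 secreted ligands, their receptor tyrosine kinases and the junction proteins of the vessel wall. They were followed as 10 of the 31053 gene rows measured in mouse brain, each taken by its gene symbol, across classes of nuclei and between genotypes. The study asked how losing 1 copy of *Csf1r*, the receptor that microglia need for survival, changes the transcripts of brain cells before symptoms appear. Nuclei came from whole perfused brains of female C57/BL6 mice aged 2 months, without treatment, and were released without detergent and cleared of myelin debris before single-nucleus RNA sequencing. WT mice carried both *Csf1r* copies and Csf1r+/- mice were heterozygous in every cell, not in microglia alone. Each library came from 1 mouse, with 2 WT and 2 Csf1r+/- libraries, and the third mouse of each genotype was not analysed here.

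Vascular endothelial growth factor A, the product of *Vegfa*, is released by parenchymal cells and binds the endothelial receptors encoded by *Flt1* and *Kdr*. The *Kdr* product carries most of the growth signal, whereas the *Flt1* product binds the ligand tightly and can act as a decoy. Angiopoietin 1, from *Angpt1*, activates the receptor encoded by *Tek*, with which the orphan receptor encoded by *Tie1* associates, and this axis stabilizes vessels. Claudin 5 and occludin, from *Cldn5* and *Ocln*, form the tight junctions of the blood-brain barrier, and VE-cadherin and PECAM-1, from *Cdh5* and *Pecam1*, join endothelial cells at adherens junctions and along their borders.

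A unique molecular identifier (UMI) tags each captured transcript, and the UMIs of a gene in a nucleus are its count. The 4 libraries kept 9589 to 16114 nuclei, with median depths of 4636 and 5490 UMIs in WT and 6656 and 7454 UMIs in Csf1r+/-. Nuclei were sorted by marker genes that left out all 10 genes, so each class name below means that a nucleus resembled that cell type in its markers. *Csf1r* itself stood at 772 and 735 in the microglia-like class of the WT libraries, in counts scaled to the class total, and at 496 in both Csf1r+/- libraries. All levels below are in CPM, a gene's UMIs scaled to an equal UMI total for every class and library, and mean ± SD is over the 4 libraries. Levels are compared within a gene only, because no correction for transcript length was made. Counting intervals and limits from a count of 0 (3 counts) cover counting error only. Pairs of libraries shared 33 to 68 barcodes of kept nuclei. The endothelial-like class held 197 and 65 WT and 60 and 69 Csf1r+/- nuclei. All 18 markers of its list were detected in it, at 1.73% and 1.60% of its UMIs in WT and 2.33% and 2.03% in Csf1r+/-, and 11 of 14 mural markers gave 0.152% to 0.215%. Most of this mural share was *Rgs5*, at 1662 CPM over all libraries, against 29.7 for *Vtn* and 11.9 for *Pdgfrb*. A further 136 nuclei met both the endothelial and the mural rule and were kept as a class of their own. The neuron-like classes held 27112 excitatory, 5514 inhibitory and 10487 other nuclei, whereas the oligodendrocyte-like class held 2267 nuclei and the microglia-like class 669. Only 25 mural-like, 30 fibroblast-like, 45 astrocyte-like and 64 oligodendrocyte precursor-like nuclei were found, so that levels in these classes rest on few UMIs.

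*Vegfa* (chr17:46016993-46032369, minus strand, GRCm38) had its highest means, among the classes compared, in oligodendrocyte precursor-like and astrocyte-like nuclei. In the astrocyte-like class its level was 142 and 102 for WT replicates 1 and 2 and 140 and 82.0 for the Csf1r+/- pair, or 116 ± 29.4, from 11 UMIs in 9 of 45 nuclei. The oligodendrocyte precursor-like class gave 37.6, 61.6, 389 and 143 in the same order, or 158 ± 161, from 18 UMIs. The genotypes overlapped in the former class, and the spread between libraries of the latter was as large as its mean, so the order of these classes was not resolved. Fibroblast-like nuclei held 4 *Vegfa* UMIs and mural-like nuclei 0 of 34869, which allows up to 86.0 CPM.

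Among neurons, *Vegfa* was higher in every library in the inhibitory class, at 16.4, 21.6, 22.3 and 20.4 (20.2 ± 2.63), than in the excitatory class, at 8.50, 11.3, 11.1 and 9.05 (9.99 ± 1.42). The other neuron-like nuclei lay between them at 16.3 ± 1.64. Oligodendrocyte-like nuclei gave 12.02 ± 7.19 and endothelial-like nuclei 10.4 ± 8.45, from 0, 2, 2 and 1 UMIs, and both overlapped the excitatory values. Microglia-like nuclei held 5 *Vegfa* UMIs, or 4.69 ± 4.26. A *Vegfa* UMI was found in 8.45% of excitatory nuclei (median 7847 UMIs) and 11.3% of inhibitory nuclei (median 5348), against 0.747% of microglia-like nuclei (median 1336). After each nucleus was thinned to 1000 UMIs, the shares were 1.05%, 1.80% and 0.395%, and that of astrocyte-like nuclei was 15.4%. By number of transcripts the order was reversed. Of 4640 *Vegfa* UMIs, 54.1% lay in excitatory, 18.8% in other neuron-like and 15.1% in inhibitory nuclei. These classes made up 52.0%, 20.1% and 10.6% of the nuclei kept. Excitatory nuclei were also the deepest class, with 255083320 UMIs of all genes against 91523 in the astrocyte-like class. Such shares follow class size and do not measure level.

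**Figure D1:**
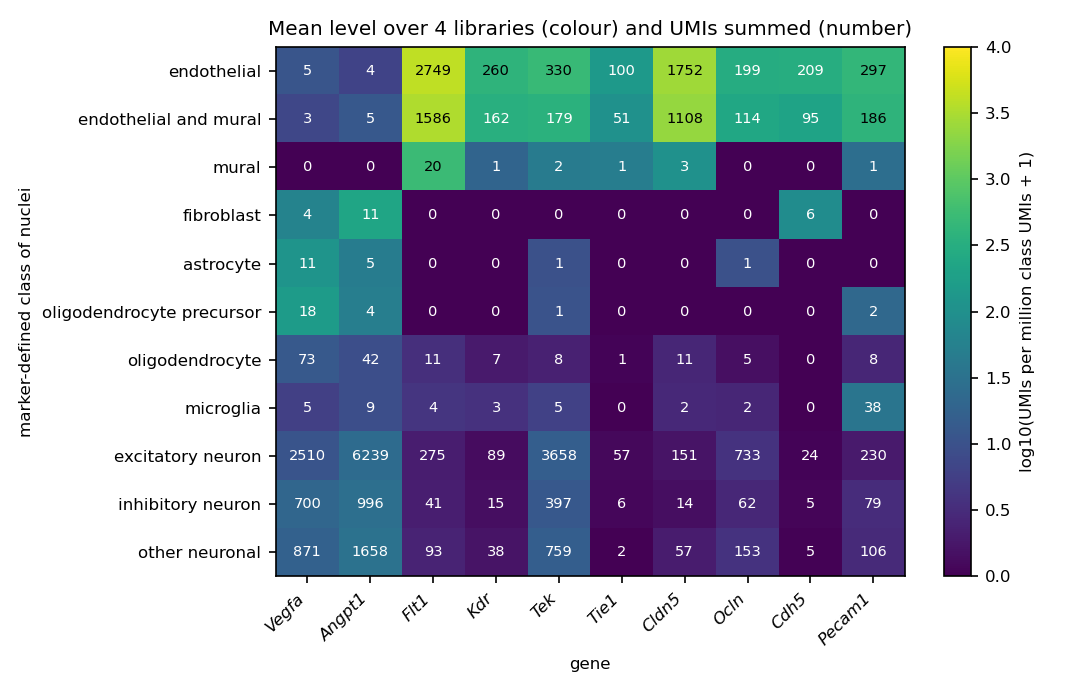
Heat map of the 10 genes (columns) over marker-defined classes of nuclei (rows). Colour is log10 of the mean level over 4 libraries plus 1, in CPM of the class, and each number is the UMIs summed over libraries. The 8 receptor and junction genes are brightest in the 2 endothelial rows, while *Vegfa* and *Angpt1* have 5 and 4 UMIs in the endothelial row.

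Within neurons, *Vegfa* differed between Leiden clusters, groups of nuclei with similar transcripts that were built without the 10 genes and are numbered by size. Cluster 12, led by *Eya4* and *Sox6* and mostly of the inhibitory class, stood at 25.6, 29.2, 29.9 and 32.9 CPM (29.4 ± 3.0). Cluster 2, led by *Arhgap25*, stood at 6.46. Small clusters led by *Sim1* and *Lhx1* (cluster 28) and by *Six3* and *Isl1* (cluster 31) reached 40.9 and 40.3. The highest value, 85.1 ± 57.8, was that of cluster 30, which was led by the precursor genes *Pdgfra* and *Cspg4*.

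*Angpt1* (chr15:42424723-42676977, minus strand) was counted mainly in neurons, with 63.7% of its 9793 UMIs in excitatory nuclei. That class also held the most UMIs of all genes, 255083320, so the share does not measure level. The antisense gene *Gm17473* overlaps it. Levels in the excitatory class were 33.7 and 24.9 in WT and 15.7 and 21.9 in Csf1r+/-, or 24.05 ± 7.46. Inhibitory nuclei gave 30.4, 25.5, 33.6 and 22.8 (28.1 ± 4.85) and other neuron-like nuclei 30.8 ± 3.53, so the neuronal classes did not differ beyond their spread. Fibroblast-like nuclei had the highest mean, 222 ± 282, but it came from 11 UMIs in 4 nuclei, with 8 of these UMIs in Csf1r+/- replicate 1. Astrocyte-like nuclei held 5 UMIs (46.5 ± 43.7) and precursor-like nuclei 4, while endothelial-like nuclei held 2, 1, 0 and 1 UMIs (5.43 ± 3.65). Mural-like nuclei, the class that textbook accounts name as the source of angiopoietin 1 for vessels, held 0 of 34869 UMIs. The limit this allows, 86.0 CPM, lies above the neuronal levels, so a level like that of neurons was not detectable in this class at this depth. Nuclei that met both the endothelial and the mural rule held 5 *Angpt1* UMIs, at 10.6, 10.6, 24.4 and 0 CPM by library (11.4 ± 10.0). The mural part of that mixed class cannot be told apart from its endothelial part.

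*Angpt1* was unevenly spread over Leiden clusters. Cluster 24, led by *Pde1c*, *Sall3* and *Lgr5* and with the largest part of its nuclei, 40.2%, in no class, stood at 232, 162, 318 and 279 CPM (248 ± 66.9), the highest mean of the 31 clusters. Cluster 25, led by *Oprk1*, *Gnb4* and *Nr4a2*, stood at 165, 127, 75.4 and 207 (144 ± 56.2), and 51.1%, 44.8%, 48.8% and 62.5% of its nuclei had an *Angpt1* UMI. Cluster 8, led by *Gm26883*, *Tshz2* and *Adcy10*, followed at 138, 69.7, 25.9 and 40.6. Across all excitatory nuclei 10.4% had an *Angpt1* UMI, against 1.20% of microglia-like nuclei, at median depths of 7847 and 1336 UMIs. At 1000 UMIs per nucleus these shares were 1.97% and 0.593%.

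**Figure D2:**
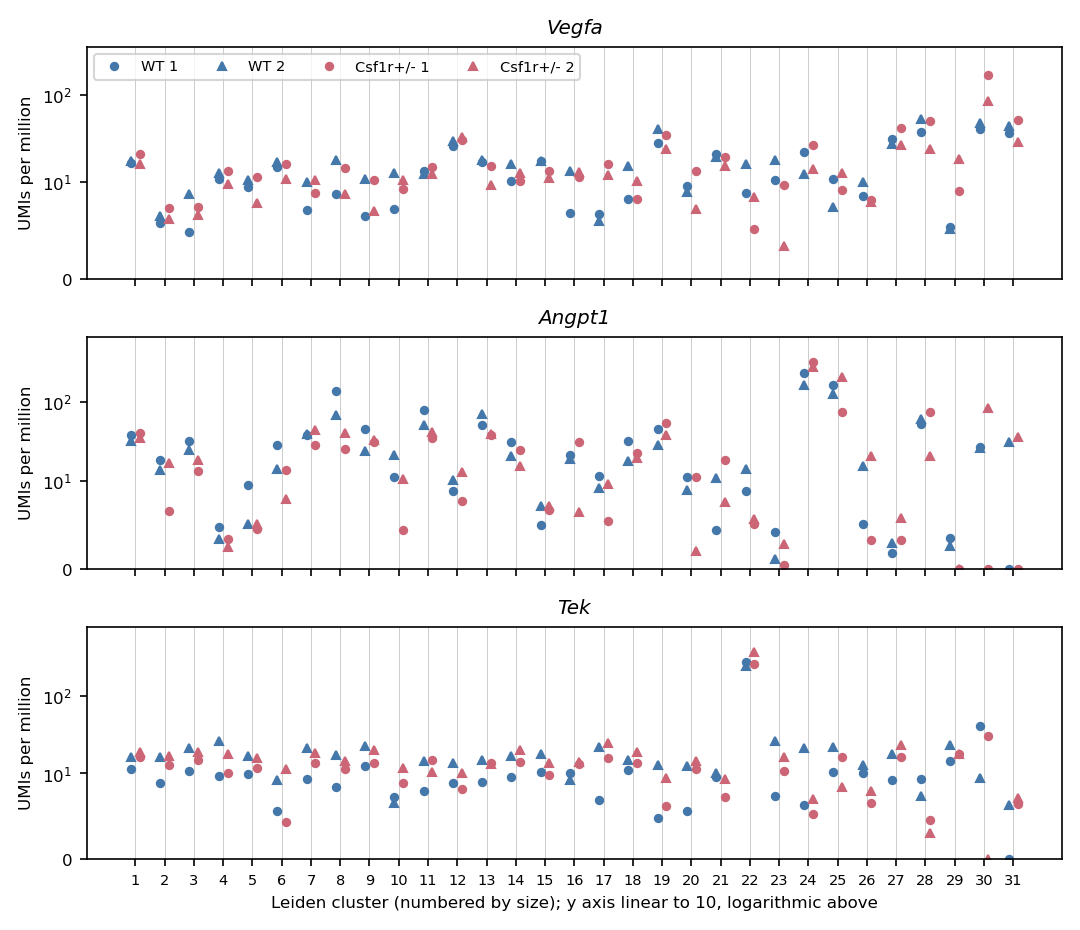
Levels of *Vegfa*, *Angpt1* and *Tek* (CPM, drawn as UMIs scaled to the cluster total, y axis linear to 10 and logarithmic above) in 31 Leiden clusters (x axis), 1 point per library, coloured by genotype. *Angpt1* peaks in clusters 24 and 25, and *Tek* in the endothelial cluster 22. Of the 12 clusters tested for *Angpt1*, Csf1r+/- points lie below the WT points in clusters 3, 8, 11 and 13 and above them in cluster 24. Over all gene tests, after TMM scaling, 15.0% lay below and 14.0% above.

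The VEGF receptors had their highest means in endothelial-like nuclei, followed by the nuclei that met both the endothelial and the mural rule, where *Flt1* averaged 3341 and *Kdr* 337. In WT replicate 2 *Kdr* was higher in the latter, at 223 against 213. *Flt1* (chr5:147561604-147726011, minus strand) stood at 3831 and 3479 in WT and 5069 and 4447 in Csf1r+/-, or 4207 ± 701, and a *Flt1* UMI was found in 95.9% of these nuclei. *Kdr* (chr5:75932827-75978458, minus strand) stood at 367, 213, 628 and 407, or 404 ± 171, and was found in 40.4% of nuclei. For both genes the 2 Csf1r+/- libraries lay above the 2 WT libraries, and *Kdr* varied more between libraries of 1 genotype. After TMM scaling 22.3% of all genes tested in this class lay above in the same way. With the nuclei that met both rules left aside, the next class was the mural-like one, where *Flt1* averaged 538 from 20 UMIs, a ratio of 7.82, and *Kdr* had 1 UMI. Excitatory nuclei gave 1.11 for *Flt1* and 0.338 for *Kdr*, and 0.734% of them had a *Flt1* UMI despite a median depth of 7847 UMIs against 1375 in the endothelial class. Of all 5823 *Flt1* UMIs, 47.2% lay in endothelial-like nuclei, 27.2% in nuclei meeting both rules and 17.9% in nuclei given no class.

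The TIE receptors shared the endothelial maximum but not the rest of the pattern. *Tek* (chr4:94739289-94874976, plus strand) stood at 449, 502.5, 514 and 550.2 in endothelial-like nuclei, or 504 ± 41.9. *Tie1* (chr4:118471191-118490061, minus strand) stood at 161, 122, 152 and 143, or 144 ± 16.7. Both varied little between libraries. The genotypes overlapped for *Tie1*, and for *Tek* the Csf1r+/- libraries lay above the WT libraries before TMM scaling but not after it. In WT replicate 1 *Tie1* was higher in mural-like nuclei, where a single UMI in 6 nuclei gave 192 CPM. *Tek* was found in 50.1% and *Tie1* in 18.9% of endothelial-like nuclei, or 36.9% and 12.97% at 1000 UMIs per nucleus.

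The promoters of the receptors and of *Cldn5*, some of the genes that share a class of highest level, are printed. Each run holds the 250 bases before the RefSeq transcript start on GRCm38.p6, 5′ to 3′ along the gene, with the ETS core GGAA and its reverse complement TTCC, searched on both strands, in capitals. ETS factors include the product of *Erg*, one of the endothelial markers used.
Flt1, chr5:147726012-147726261, minus strand: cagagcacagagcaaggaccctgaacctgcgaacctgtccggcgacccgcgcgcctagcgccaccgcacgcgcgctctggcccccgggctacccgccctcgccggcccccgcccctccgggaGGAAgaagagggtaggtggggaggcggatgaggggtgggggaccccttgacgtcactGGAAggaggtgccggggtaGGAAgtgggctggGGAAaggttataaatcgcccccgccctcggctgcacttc
Kdr, chr5:75978456-75978705, minus strand: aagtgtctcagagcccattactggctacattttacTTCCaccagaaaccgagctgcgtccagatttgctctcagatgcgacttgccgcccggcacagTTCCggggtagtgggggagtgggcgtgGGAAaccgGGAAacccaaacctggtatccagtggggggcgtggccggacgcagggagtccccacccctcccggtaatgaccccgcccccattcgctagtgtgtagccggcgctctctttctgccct
Tek, chr4:94739039-94739288, plus strand: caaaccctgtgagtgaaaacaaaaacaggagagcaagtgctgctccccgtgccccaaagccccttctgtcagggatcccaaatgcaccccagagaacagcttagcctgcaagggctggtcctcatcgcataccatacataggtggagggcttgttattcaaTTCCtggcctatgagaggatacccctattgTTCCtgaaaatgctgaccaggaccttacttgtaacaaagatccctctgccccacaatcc
Tie1, chr4:118489850-118490099, minus strand: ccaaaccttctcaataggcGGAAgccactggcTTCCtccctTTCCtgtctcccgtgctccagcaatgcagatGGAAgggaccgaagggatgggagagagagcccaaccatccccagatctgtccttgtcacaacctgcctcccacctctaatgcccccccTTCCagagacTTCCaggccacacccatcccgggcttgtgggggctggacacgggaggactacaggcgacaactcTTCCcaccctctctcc
Cldn5, chr16:18776597-18776846, plus strand: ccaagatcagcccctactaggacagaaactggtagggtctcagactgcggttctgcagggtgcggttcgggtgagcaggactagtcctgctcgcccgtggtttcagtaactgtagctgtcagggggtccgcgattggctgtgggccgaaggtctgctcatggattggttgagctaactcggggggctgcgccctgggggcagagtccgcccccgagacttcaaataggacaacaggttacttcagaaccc
*Flt1* and *Kdr* had 4 cores each, *Tek* 2, *Tie1* 7 and *Cldn5* 0. Of the promoters not printed, those of *Ocln*, also highest in the endothelial-like class, had 1 and 2 cores. Those of *Vegfa*, which was not, had 2 and 6. Of 32851 mouse promoters of this length, 93.5% held at least 1 core, 76.8% at least 2, 33.4% at least 4 and 3.82% at least 7, with a median of 3. RefSeq promoters were matched for 7 of the 10 genes.

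Among junction genes, *Cldn5* (chr16:18776847-18778262, plus strand) stood at 2350 and 2284 in WT and 3405 and 2842 in Csf1r+/- endothelial-like nuclei, or 2720 ± 520, and was found in 90.3% of them. *Ocln* (chr13:100496507-100552718, minus strand) stood at 292, 244, 380.4 and 286, or 300.5 ± 57.5. *Cdh5* (chr8:104101625-104144511, plus strand), which the antisense gene *Gm29682* overlaps, stood at 308, 297, 361 and 286, or 313 ± 33.3. *Pecam1* (chr11:106654217-106750628, minus strand) stood at 446, 312, 523 and 489.9, or 443 ± 92.7. For *Cldn5* and *Pecam1* the Csf1r+/- libraries lay above the WT libraries, whereas the genotypes overlapped for *Ocln* and *Cdh5*. Of all genes tested in this class, 22.3% lay above in this way after TMM scaling.

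Nuclei that met both the endothelial and the mural rule came next for the junction genes, with a mean of 397 for *Pecam1*, which in Csf1r+/- replicate 1 was higher there (672) than in endothelial-like nuclei (523), and 211 for *Cdh5*. The ranks that follow leave these nuclei aside. *Pecam1*, also an adhesion molecule of myeloid cells, was next highest in microglia-like nuclei at 42.2, 10.4, 50.2 and 37.5 (35.1 ± 17.3). These 38 UMIs lay in 4.63% of the nuclei, in a class with 4 *Flt1* UMIs and no *Cdh5* or *Tie1* UMI. *Cdh5* was next highest in fibroblast-like nuclei, with 6 UMIs in 5 of 30 nuclei and a mean of 86.5, where no *Flt1*, *Cldn5* or *Pecam1* UMI was found. *Cldn5* averaged 105 in mural-like nuclei, from 3 UMIs, and 0.614 in excitatory nuclei.

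*Tek* and *Ocln* were also counted widely in neurons. *Tek* stood at 9.89, 18.8, 12.98 and 17.2 in excitatory nuclei (14.7 ± 4.04), at 11.6 ± 2.41 in inhibitory nuclei and at 14.8 ± 3.73 in other neuron-like nuclei. Excitatory nuclei thus held 3658 of its 5772 UMIs, or 63.4%, and endothelial-like nuclei 5.72%. The former class held 255083320 UMIs of all genes and the latter 674302, so these shares follow class size. A *Tek* UMI was found in 11.7% of excitatory nuclei, against 0.353% of oligodendrocyte-like nuclei, where 8 UMIs were counted at a median depth of 1884 UMIs. At 1000 UMIs per nucleus the shares were 1.62% and 0.0933%. *Ocln* stood at 3.32, 3.48, 2.14 and 2.59 in excitatory nuclei (2.88 ± 0.629), which held 51.7% of its 1419 UMIs.

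The ratio of these genes to *Flt1* differed by class. There were 0.12 *Tek* UMIs per *Flt1* UMI in endothelial-like nuclei, 13.3 in excitatory nuclei and 9.68 in inhibitory nuclei. For *Ocln* the ratios were 0.0724 in endothelial-like and 2.67 in excitatory nuclei. *Ocln* reached 32.2, 23.4, 49.8 and 12.1 CPM in cluster 29, which was led by *Glis3*, *Cecr2* and *Maml2*. *Flt1* and *Cldn5* in excitatory nuclei averaged 1.11 and 0.614. The class rule had left out neurons with at least 3 endothelial markers at 0.1% of UMIs or more. The part of free RNA in the neuronal values and ratios was not tested.

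**Figure D3:**
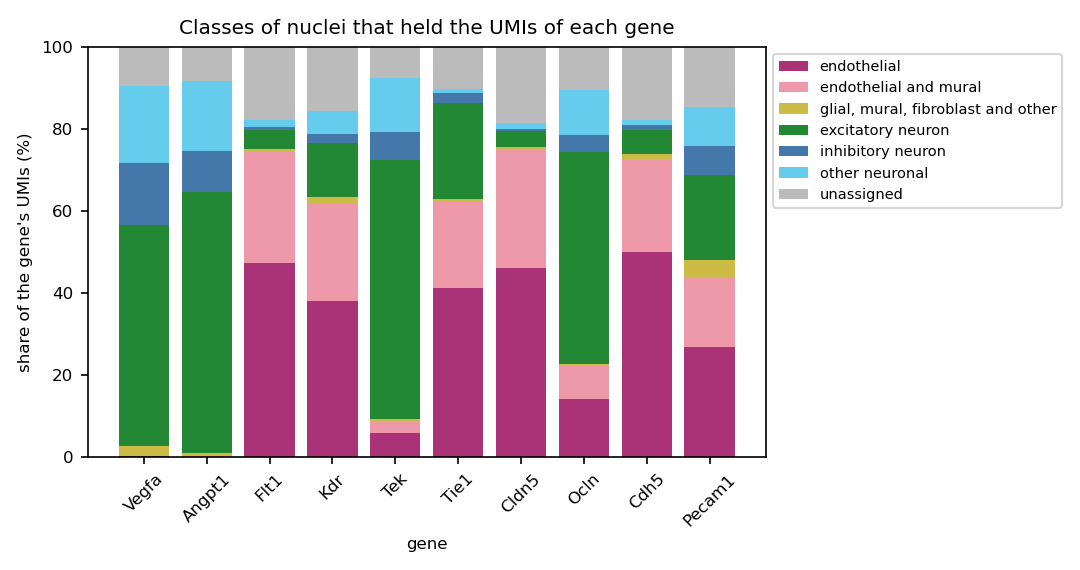
Share of each gene's UMIs (y axis, percent, summed over 4 libraries) found in each class of nuclei, with 1 stacked bar per gene. Endothelial-like nuclei hold 47.2% of *Flt1* but 5.72% of *Tek* UMIs, and excitatory nuclei hold 63.7% of *Angpt1* and 54.1% of *Vegfa* UMIs. Excitatory nuclei are 52.0% of the nuclei kept and the deepest class, so shares also follow class size.

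The genotype contrast was read first in endothelial-like nuclei, from counts summed per library. None of the 8 receptor and junction genes differed between Csf1r+/- and WT at an unadjusted p of 0.01 (edgeR quasi-likelihood test, two-sided), against 182 of 4023 genes tested, or 4.52%. The study used this limit with another test, the edgeR likelihood-ratio test. The likelihood-ratio test also put none of the 8 past it, against 37 genes higher and 223 lower of the 4023. DESeq2 put none of the 8 past it either, against 0 genes higher and 65 lower. By the quasi-likelihood test 1 of the 8, *Kdr*, had an unadjusted p under 0.05. After Benjamini-Hochberg adjustment no gene of the 4023 passed 0.05, while 493 had an unadjusted p under 0.05, the likelihood-ratio test passed 136 genes and DESeq2 0. For a single value, 2 against 2 libraries cannot give a two-sided exact permutation p below 0.333. *Vegfa* and *Angpt1*, with 5 and 4 UMIs, were not tested in this class.

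Of the 8 genes, *Kdr* had the largest estimate: its TMM-scaled level was 370.1 and 222 in WT and 614 and 396 in Csf1r+/-, a log2 fold change of 0.71 ± 0.33 (SE; adjusted p = 0.407, edgeR), with an unadjusted p of 0.0497. This value rested on single libraries, since it was 1.12 without WT replicate 1 (unadjusted p of 0.0098) and 0.37 without Csf1r+/- replicate 1. Without Csf1r+/- replicate 2 the unadjusted p was 0.00933. *Cldn5* gave 0.36 ± 0.24 (adjusted p = 0.602), *Pecam1* 0.32 ± 0.29 (adjusted p = 0.713) and *Flt1* 0.31 ± 0.23 (adjusted p = 0.645). *Ocln*, *Tek*, *Cdh5* and *Tie1* gave 0.22, 0.10, 0.02 and -0.05, each smaller than its SE.

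For *Flt1*, *Kdr*, *Cldn5* and *Pecam1* both Csf1r+/- libraries lay above both WT libraries after TMM scaling, 4 of 8 genes against 22.3% of all genes tested. None of the 8 lay below in both, against 21.5%. The estimate was above 0 for 7 of 8, against 53.4% of all genes, with a median of 0.26 against 0.05. The upward lean was not particular to these genes. The 18 class markers, which exclude them, took 1.73% and 1.60% of endothelial UMIs in WT and 2.33% and 2.03% in Csf1r+/-. The pan-neuronal and mural marker lists moved in opposite directions with genotype in the same nuclei. Mural markers took 0.174% and 0.152% of endothelial UMIs in WT and 0.215% and 0.177% in Csf1r+/-. The class rule left out nuclei with over 0.6% pan-neuronal UMIs. Pan-neuronal markers took 0.286% and 0.278% of endothelial UMIs in WT and 0.105% and 0.200% in Csf1r+/-, and the free RNA estimated from them was 26.3% and 26.6% against 11.6% and 13.9%. With that estimate subtracted, 4 of the 8 estimates were above 0, their median was 0.03 and they ranged from -0.26 to 0.49. Subtraction took class totals from 305138 and 131350 to 228192 and 98606 UMIs in WT. In Csf1r+/- it took them from 105140 and 132674 to 95515 and 115837. A larger cut in WT totals can itself raise the scaled WT levels of genes rare in free RNA. The subtraction thus cannot decide whether the 8 genes differ by genotype, and the part of free RNA was not tested. As shares of the UMIs of these 8 genes, *Flt1* took 46.7%, 46.7%, 46.0% and 47.1% by library, and *Cldn5* 28.6%, 30.6%, 30.9% and 30.1%. The share of *Kdr* was 4.47% and 2.86% in WT and 5.69% and 4.31% in Csf1r+/-, with exact 95% intervals of 3.70% to 5.36%, 1.91% to 4.11%, 4.43% to 7.18% and 3.25% to 5.58%. In the 136 nuclei that met both the endothelial and the mural rule, none of the 8 genes passed the unadjusted p of 0.01, against 0.778% of genes tested.

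**Figure D4:**
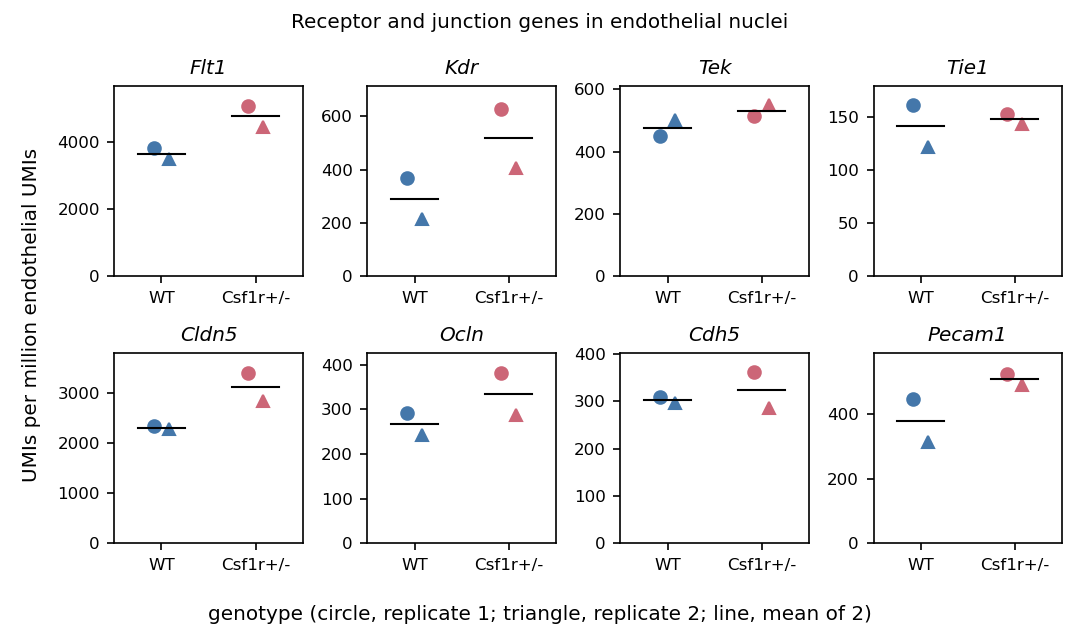
Levels of the 8 receptor and junction genes in endothelial-like nuclei, in CPM (y axis from 0), by genotype. Each point is 1 library and each line the mean of 2. For *Flt1*, *Kdr*, *Tek*, *Cldn5* and *Pecam1* both Csf1r+/- points lie above both WT points. After TMM scaling *Tek* overlaps, and 4 of 8 genes separate this way, against 22.3% of all genes tested.

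**Figure D5:**
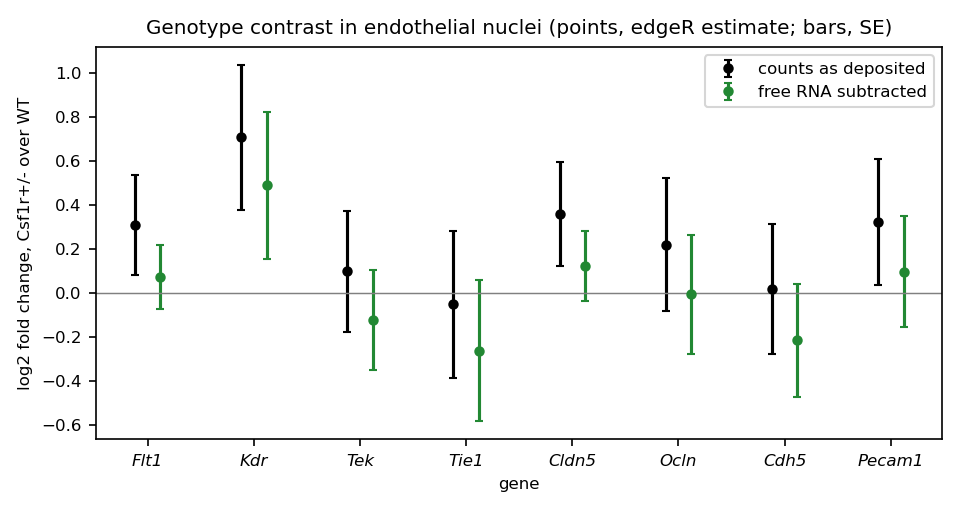
Log2 fold change of Csf1r+/- over WT in endothelial-like nuclei for 8 genes (edgeR; bars, SE), from deposited counts (black) and after free RNA was subtracted (green). Black points lie above 0 for 7 genes and green points for 4. Subtraction cut class totals more in WT, which can itself lower the green points.

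Pathway lists were also read in endothelial-like nuclei. The lists hold the receptor and junction genes reported above beside other genes. *Flt1* and *Kdr*, for example, are among the genes tested in the VEGF receptor list. The counts and medians of the lists thus reuse values given above and are not independent of them. Of the VEGF ligands, receptors and co-receptors 4 of 11 listed symbols could be tested, of the angiopoietin and TIE axis 4 of 7, of the tight junction list 8 of 13, of the adherens junction list 7 of 9, of VEGF signalling genes and targets 5 of 12, and of oxygen-sensing genes 6 of 8. Among the 11 symbols, *Vegfd* and *Figf* name the same gene. No gene of these lists passed the unadjusted p of 0.01 by edgeR, in either direction, against 4.52% of all genes tested, a share that would give few calls among so few genes. *Kdr* was the 1 gene of them with a p under 0.05. Median log2 fold changes were 0.27, 0.10, 0.25, 0.02, 0.45 and 0.06 in the same order, beside 0.05 over all genes. The VEGF co-receptor *Nrp1* gave 0.23 ± 0.34, and *Ptprb*, the phosphatase that acts on the *Tek* product, 0.11 ± 0.26. The forkhead factor *Foxo1*, which angiopoietin signalling inhibits, gave 0.33 ± 0.31. Of the junction scaffolds and adhesion genes, *Tjp1* gave 0.00, *Esam* 0.29, *Ctnnb1* 0.08 and *Afdn* -0.37. *Sema3c*, *Rasip1* and *Notch1* gave 0.45, 0.49 and 0.15. *Slc2a1*, the endothelial glucose transporter, gave 0.25, *Epas1* 0.09 and *Ndrg1* 0.02.

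The ligands were read where nuclei sufficed. The mural-like, astrocyte-like, fibroblast-like and precursor-like classes had under 10 nuclei in some library and could not be fitted. In excitatory nuclei *Angpt1* had TMM-scaled levels of 34.4 and 23.9 in WT and 15.9 and 22.2 in Csf1r+/-, a log2 fold change of -0.61 ± 0.24 (adjusted p = 1, edgeR), with an unadjusted p of 0.0501. The estimate was -0.33 without WT replicate 1 and -0.39 without Csf1r+/- replicate 1. The background in this class was 0.265% of 7937 genes past the unadjusted p of 0.01. *Tek* gave 0.12 ± 0.31 there, and its sign turned without WT replicate 1 (-0.24). *Vegfa* had a UMI in under 10% of excitatory nuclei and gave 0.10 ± 0.20 (adjusted p = 0.9998, edgeR) where this limit on detection was dropped. In inhibitory nuclei *Vegfa* gave 0.18 ± 0.17 (adjusted p = 1, edgeR), against 0.112% of 7122 genes past 0.01.

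The receptor and junction genes were sparse in neurons, where *Tek* in excitatory nuclei alone met the limit on detection, so the other values come from fits without that limit. *Flt1* had the lowest p. In other neuron-like nuclei its TMM-scaled level was 1.78 and 3.23 in WT and 0.324 and 0.856 in Csf1r+/-, from 33, 48, 3 and 9 UMIs, a log2 fold change of -2.02 ± 0.55 (adjusted p = 0.9999, edgeR), with an unadjusted p of 0.00674. Past the unadjusted 0.01 were 0.374% of 18969 genes in this class. In inhibitory nuclei *Flt1* stood at 1.59 and 1.73 against 0.651 and 0.569 (-1.40 ± 0.52, adjusted p = 1, edgeR), and in excitatory nuclei at 1.02 and 1.64 against 0.78 and 0.973 (-0.56 ± 0.35, adjusted p = 0.9998, edgeR). None of the 6 inhibitory and 8 excitatory fits of these genes passed the unadjusted 0.01, against 0.408% and 0.359% of genes. The WT libraries of *Flt1* were the higher ones in all 3 classes, whereas *Tek* and *Pecam1* overlapped in all 3.

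In excitatory nuclei both Csf1r+/- libraries lay below both WT libraries for 4 of the 8 genes (*Flt1*, *Kdr*, *Cldn5* and *Ocln*), against 16.8% of 21756 genes, and above for 1, *Tie1*, against 8.80%. In inhibitory nuclei this held for 1 of 6 genes below, *Flt1*, against 15.3%, and for none above, against 12.2%. In other neuron-like nuclei it held for 4 of 6 below, the same genes as in excitatory nuclei, against 15.2%, and for none above, against 13.6%. The other 2 genes, *Tie1* and *Cdh5*, had under 10 UMIs in these last classes. *Tie1* in excitatory nuclei had 11 and 8 UMIs in WT and 18 and 20 in Csf1r+/-, a log2 fold change of 1.02 ± 0.45 (adjusted p = 0.9998, edgeR). Free RNA was not estimated in neurons. In endothelial-like nuclei its estimate was higher in both WT libraries, and its part in the neuronal values was not tested.

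Fits of 30 single clusters, chosen after the data were seen, tested *Tek* in 16, *Vegfa* in 13, *Angpt1* in 12 and *Ocln* in 4 clusters, and each of the other 6 genes in cluster 22 alone. Over all clusters 0.652% of gene tests passed the unadjusted p of 0.01 and 0.00695% the adjusted p of 0.05 by edgeR, the latter with none of the 10 genes. Of the 10 genes, *Angpt1* passed the former in cluster 8, where 0.991% of 6557 genes did, and *Vegfa* in cluster 17, where 2.23% of 8928 genes did. For *Angpt1* in cluster 8, TMM-scaled levels were 143 and 67.4 in WT and 25.6 and 41.2 in Csf1r+/-, a log2 fold change of -1.64 ± 0.38 (adjusted p = 0.904, edgeR), with an unadjusted p of 0.00413. Both Csf1r+/- libraries lay below both WT libraries, as for 15.0% of all gene tests. The adjusted p over this cluster's genes was 0.0252 by the likelihood-ratio test and 0.00396 by DESeq2. Leaving out each library gave -1.01 (without WT replicate 1) to -2.08 (without WT replicate 2). In the WT libraries 12.6% and 8.66% of the cluster's nuclei had an *Angpt1* UMI, against 4.26% and 7.62% in Csf1r+/-, and 26, 14, 8 and 14 nuclei held 5 or more. Fewer *Angpt1*-rich nuclei and less *Angpt1* RNA per nucleus cannot be told apart in these sums.

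In cluster 24, where *Angpt1* stood highest, the estimate was 0.59 ± 0.23 (adjusted p = 0.792, edgeR). *Vegfa* in cluster 17, led by *AI481877* and *Gm2164*, had TMM-scaled levels of 6.78 and 5.79 in WT and 16.2 and 12.4 in Csf1r+/-, a log2 fold change of 1.16 ± 0.30 (adjusted p = 0.374, edgeR), with an unadjusted p of 0.00457. Both Csf1r+/- libraries lay above both WT libraries, as for 14.0% of all gene tests. These values rest on 28, 17, 44 and 43 UMIs, and the unadjusted p was 0.0106 without WT replicate 2, 0.0405 without Csf1r+/- replicate 1 and 0.0223 by DESeq2. Median depth in the cluster was 8466 and 7542 UMIs in WT and 13230 and 11020 in Csf1r+/-, and its part in the result was not tested.

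Over 41 sums of class and library, the genes whose log2 level followed *Flt1* most closely among 12532 genes were *Emcn* (r = 0.973), itself a marker of the endothelial class, *Hspb1* (r = 0.953) and *Bcam* (r = 0.948). The nearest to *Vegfa* were *E130114P18Rik* (r = 0.794), *Adgrl1* (r = 0.720) and *Gm11266* (r = 0.696), and those nearest to *Angpt1* were *Rspo3* (r = 0.759), *Necab1* (r = 0.753) and *Bdh1* (r = 0.722). Sums of 1 library share its depth, and the correlations are descriptions. Sums of small classes held few ligand UMIs. The fibroblast-like sums had 2, 0 and 8 *Angpt1* UMIs in WT replicates 1 and 2 and Csf1r+/- replicate 1.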

How the data were processed

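Per the labels and the paper's methods, the authors made 3′ droplet libraries from nuclei of 4 mice used here and counted them with Cell Ranger against mm10 (the submitters' processing notes). The deposited matrices hold raw UMI counts for each gene and called barcode, not normalized (9905 to 16415 barcodes per library). Nuclei with 500 to 50000 UMIs, over 200 genes and under 5% mitochondrial UMIs were kept (9589 to 16114). No doublet caller was run. Gene positions came from GENCODE mouse release 21, which matched 30934 of 31053 identifiers, and promoters from RefSeq.

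Non-neuronal classes needed at least 3 markers of 1 list in a nucleus, at least 0.2% of its UMIs and at most 0.6% pan-neuronal UMIs. Neuron-like nuclei needed at least 3 pan-neuronal markers at over 0.6% of UMIs. They were left out if any non-neuronal list reached 3 markers and 0.1%. Excitatory nuclei held at least 4 times as many excitatory as inhibitory marker UMIs. Inhibitory nuclei held at least 2 inhibitory markers and no fewer inhibitory than excitatory UMIs. Leiden clustering (leidenalg 0.10.2, Python 3.11.15) used 3000 variable genes, 30 components, 20 neighbours and resolution 1. Counts summed per class and library were compared with edgeR 4.0.16 (TMM, quasi-likelihood) under R 4.3.3 where every library had at least 10 nuclei. Genes entered with 10 or more counts over all libraries and detection in 10% of a genotype's nuclei or more. The script was tested on simulated data. Alternatives included DESeq2 1.42.0, a replicate block, other class rules, subtraction of free RNA and leaving out each library. Each library is 1 mouse, so p-values rest on 2 mice per genotype. The edgeR test moderates each gene's spread between libraries by that of the other genes. Chi-square values between libraries were 34.8 to 93.2 per degree of freedom, so none was a duplicate.

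Genes named were the 10, the 3 genes of each pathway list with most endothelial UMIs, list genes past p 0.01, and the 3 nearest in level to *Flt1*, *Vegfa* and *Angpt1*. The genes, lists and markers were chosen with earlier results of these data known, and single-cluster fits and the pooled endothelial and mural class were added after the data were seen.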

Additional observations from a re-analysis of the deposited data

Results flagged for a closer look

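For 3 genes the Csf1r+/- libraries all lay on 1 side of the WT libraries in some clusters and on the opposite side in others. These differences between clusters were not tested, and the clusters share the same 4 libraries. Over all genes and clusters the Csf1r+/- libraries lay above in 14.0% and below in 15.0% of tests. Beside these shares, *Vegfa* lay above in 2 and below in 1 of 13 clusters, near or under the background, and *Angpt1* above in 1 and below in 4 of 12. *Angpt1* was lower in Csf1r+/- in clusters 3 (log2 fold change -0.81), 8 (-1.64), 11 (-0.80) and 13 (-0.63) and higher in cluster 24 (0.59), and overlapped in the other 7 clusters tested. *Vegfa* was higher in clusters 12 (0.20) and 17 (1.16) and lower in cluster 15 (-0.51), with overlap in 10. *Ocln* was higher in the endothelial cluster 22 (0.21) and lower in cluster 27 (-1.30), with overlap in 2. Clusters 3, 8, 11 and 17 were mostly of the excitatory class, and 12, 13 and 15, led by *Eya4*, *Vip* and *Sst*, mostly of the inhibitory class.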

How the results depend on the processing

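Leaving 1 library out, the 182 genes past the unadjusted p of 0.01 in endothelial-like nuclei became 129 to 344, DESeq2 gave 65, the replicate block 309 and subtraction of free RNA 27. The count past the adjusted 0.05, 0 in the main analysis, became 136 by the likelihood-ratio test, 202 with the replicate block, 40 with at least 1000 UMIs per nucleus, 12 over whole Leiden clusters, 47 without nuclei over 3 times the median UMIs and 26 to 261 with 1 library left out. None of the 8 receptor and junction genes was past the adjusted 0.05 in any of these fits, where the lowest adjusted p was 0.112, and 1, *Kdr*, passed the unadjusted 0.01 without WT replicate 1 (1.12) or without Csf1r+/- replicate 2 (0.95). In excitatory nuclei the 21 genes past 0.01 became 58 by the likelihood-ratio test, 67 by DESeq2, 78 without a detection filter and 13 to 185 with 1 library left out, and 1 and 2 genes passed the adjusted 0.05 by the former 2 tests. In inhibitory nuclei 8 genes became 27, 22 and 72 in the same settings, 20 with the replicate block, 13 with at least 5 markers, 23 over whole Leiden clusters and 8 to 157 with 1 library left out, and the adjusted count was 0 to 29 with 1 library left out. Small estimates changed sign. With 1 library left out, those of *Tek*, *Tie1* and *Cdh5* in endothelial-like nuclei ranged from -0.059 to 0.20, from -0.17 to 0.13 and from -0.16 to 0.14, and that of *Tek* in excitatory nuclei from -0.24 to 0.61. With free RNA subtracted, *Tek*, *Ocln* and *Cdh5* in endothelial-like nuclei gave -0.12, -0.0054 and -0.21. *Tie1* gave 0.014 with library totals alone and 0.095 with at least 1000 UMIs, *Cdh5* -0.0016 with RLE factors, and *Vegfa* in inhibitory nuclei -0.074 over whole Leiden clusters. The cause was not tested. The endothelial *Tek* level of 504 was 293 over the whole cluster, which includes nuclei of other classes, and 613 with free RNA subtracted. Same-numbered libraries did not deviate together (correlations 0.05, -0.09 and -0.03 in endothelial-like, excitatory and inhibitory nuclei). The labels do not say whether the libraries joined by the replicate block shared a batch, and these correlations cannot exclude it. Free RNA was not subtracted in neuronal classes, and whole clusters were not available for the small classes. Endothelial counts of 105140 to 305138 UMIs per library limit what could be detected.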
